A study of Rattus norvegicus with 8 samples.

Results

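miR-126 is the best known miRNA of endothelial cells, the cells that line blood vessels. Its hairpin is cut from an intron of Egfl7, a gene that endothelial cells express, and both arms of the hairpin can be loaded into Argonaute and repress target mRNAs. The 3′ arm is known to raise the response to VEGF by repressing Spred1 and Pik3r2, and to repress the adhesion molecule Vcam1, while the 5′ arm has been tied to the renewal of endothelium through Dlk1. In the kidney the endothelium lines the glomerular and peritubular capillaries, and platelets also carry miR-126. The members described here are the rows named rno-miR-126 and rno-miR-126* in a table of reads per known rat miRNA. These were 2 of the 620 rows, chosen by name and not by their values.

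The 8 samples were kidneys of male Big Blue transgenic rats of the Fisher 344 strain, which carry a reporter gene for mutation assays, and every rat was 6 weeks old at the start. The AA group (4 rats) received aristolochic acid, a plant nephrotoxin and carcinogen given as a mixture of AAI and AAII, as its sodium salt, by gavage at 10 mg/kg in a volume of 4 ml/kg, with 5 doses weekly over 12 weeks. The control group, CTL (4 rats), was given the vehicle, sodium chloride at 0.9%, at the same times, and all rats were killed 1 day after the last dose. Each library was made from total RNA of a cut and minced piece of the kidney of 1 rat. Fewer endothelial cells, less miR-126 per cell and a different part of the kidney in the piece therefore cannot be told apart. No mRNA was measured here. A label field names the tissue as liver, but the liver miRNA miR-122 took at most 0.0634% of the reads of a library. That maximum came from 1 library, and in every other library the share was at most 0.00464%. The tubule miRNAs miR-30a and miR-192 were at 125637 ± 12922 and 38410 ± 24836 CPM (the read count scaled to a common library size with TMM, mean ± SD, n = 4) in the CTL group.

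The libraries held 13412373 to 15616670 reads on known miRNAs. The fourth library of each group had the lowest rno-miR-126* level and the highest ratio of the arms in its group, most of all in AA, and the comparisons of the arms are therefore given also for the 6 libraries numbered 1 to 3. The filter asked for 10 or more reads in 4 or more libraries and left 367 miRNAs, and 60 of these (16.3%) differed between AA and CTL at a Benjamini-Hochberg adjusted p-value under 0.05 in edgeR's quasi-likelihood fit, 38 of them higher in AA (10.4%) and 22 lower (5.99%). The AA and CTL rats did not overlap in 24.3% of the 367 miRNAs. TMM scaling and plain library totals place the groups differently, since the median log2 fold change of all tested miRNAs was 0.06 with the former and 0.27 with the latter.

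The mature sequences of both arms were matched in RefSeq (rat assembly GRCr8). In the older naming used by the table, the name without a star is the 3′ arm and the starred name the 5′ arm, and the match rests on that naming because the table holds no sequences. They are shown 5′ to 3′ with the seed, bases 2 to 8, in capitals, because the seed is what sets the targets of each arm. The third sequence, rno-miR-126b, is read from the opposite strand of the same locus and is shown because it overlaps the 5′ arm.
rno-miR-126: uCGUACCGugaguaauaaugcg
rno-miR-126*: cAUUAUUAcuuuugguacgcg
rno-miR-126b: uACCAAAAguaauaaugugcug
The seeds of the arms differ, and none of the 693 mature rat names in the RefSeq table other than each arm itself shares either seed, so that neither arm has a seed family there.

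rno-miR-126 lies at chr3:29813219-29813240 and rno-miR-126* at chr3:29813182-29813202, both on the plus strand, with 16 bases between them. Their hairpin (chr3:29813174-29813246, 73 bases, gene ID 100314237, symbol Mir126b with rno-mir-126 among its synonyms) falls inside Egfl7 (chr3:29802481-29814966). When the arms were folded against each other with RNAcofold, 18 base pairs formed, and both arms ended in a 3′ overhang of 2 bases, the shape that Dicer leaves. Of these pairs 10 were A-U, 6 were G-C and 2 were G-U. The first base of rno-miR-126 was unpaired in the predicted duplex, whereas rno-miR-126* was paired from its first base.

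On the minus strand, rno-miR-126b (chr3:29813177-29813198) overlaps rno-miR-126* over 17 bases. Its hairpin is also named rno-mir-3567, and the table lists rno-mir-3567* with 0 to 10 reads per library. The closest stretch of that antisense hairpin differs from rno-miR-126* at 4 bases and from rno-miR-126 at 5. Either arm of miR-126 had at least 7651 reads in every library, and reads of rno-miR-126b itself were not analysed here.

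The first comparison asked whether the main arm changed with AA. rno-miR-126 had 110638, 94397, 93274 and 114420 reads in the CTL libraries 1 to 4, or 8296, 6947, 5784 and 9321 CPM. In the AA libraries 1 to 4 it had 101260, 82027, 90078 and 140140 reads, or 7827, 4450, 6198 and 8302 CPM. The groups overlapped, with the lowest value in the second AA rat and the highest in the fourth CTL rat. The means were 7587 ± 1546 CPM in CTL and 6694 ± 1746 in AA (SD, n = 4 each), and the log2 fold change was -0.18 (standard error 0.22, 95% interval -0.68 to 0.32, adjusted p = 0.61 from edgeR). The direction depended on the scaling, as the log2 fold change was 0.02 with library totals. Relative to the median of all tested miRNAs it was -0.24 with TMM scaling and -0.25 with library totals. Without the libraries numbered 4 it was -0.19 (95% interval -0.70 to 0.33, adjusted p = 0.59 from edgeR). No change of the 3′ arm was detected, and the interval leaves room for a fall or rise of the sizes given by its bounds.

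The starred arm was lower in most AA rats, but not beyond the spread of the 8 libraries. rno-miR-126* had 28038, 33127, 37629 and 19807 reads in the CTL libraries 1 to 4, or 2102, 2438, 2334 and 1614 CPM. In the AA libraries 1 to 4 it had 21060, 31853, 27384 and 7651 reads, or 1628, 1728, 1884 and 453 CPM. The fourth library was the lowest of its group in both groups, and the fourth CTL rat lay just below 3 of the AA rats. The means were 2122 ± 367 CPM in CTL and 1423 ± 655 in AA (SD, n = 4 each), and the log2 fold change was -0.58 (standard error 0.36, 95% interval -1.38 to 0.23, adjusted p = 0.30 from edgeR). Relative to the median of all tested miRNAs it was -0.64 with TMM scaling and -0.65 with library totals.

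Among the 6 libraries numbered 1 to 3, the AA values of rno-miR-126* (1628 to 1884 CPM) all lay below the CTL values (2102 to 2438 CPM). The log2 fold change was then -0.39 (standard error 0.12, 95% interval -0.66 to -0.12, adjusted p = 0.061 from edgeR), which did not pass the threshold over all miRNAs. The libraries numbered 4 were left out because of their values of this arm, so this is no separate test of a fall. The fourth CTL rat, at 1614 CPM, lay below all AA values of this subset. In these 6 libraries 16.6% of the tested miRNAs were lower in AA with no overlap between the groups, 37.1% showed no overlap in either direction, and 15% were called.

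**Figure D1:**
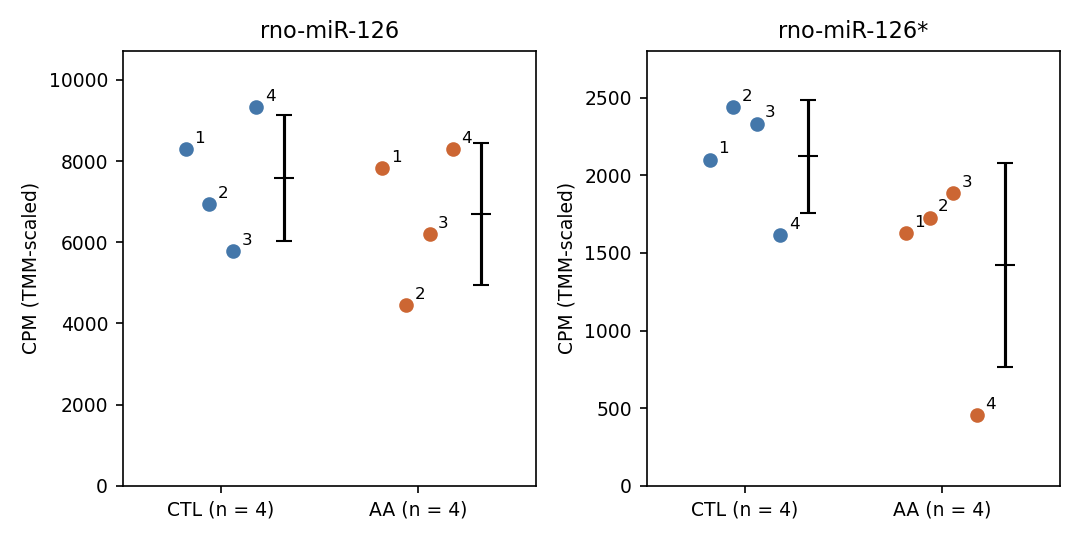
CPM of rno-miR-126 (left) and rno-miR-126* (right) in each library after TMM scaling, with the library number beside each point and the mean with its SD as a bar (n = 4 per group). Both arms overlap between the groups, and the fourth AA library is far below the others for rno-miR-126*, at 453 CPM against 1628 to 1884.

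The spread within groups was of different size for the arms. rno-miR-126* had a within-group SD of 0.72 on the log2 CPM scale, the highest among the 67 miRNAs with a mean of at least 500 CPM, whose median SD was 0.32. This rank rested on the fourth AA library, since without it the SD was 0.22, rank 44 of the 67, and in the libraries numbered 1 to 3 it was 0.11, rank 62. The SD of rno-miR-126 was 0.36, at rank 20 of the same 67, and 0.35 without the fourth AA library. In abundance rno-miR-126 ranked 12 to 21 among the 620 miRNAs of a library, and rno-miR-126* ranked 31 to 37 in all libraries but the fourth AA library, where it ranked 74. At these read numbers counting error was small beside the spread between rats. In the fourth AA library rno-miR-126* took 0.0490% of the reads, with a 95% Wilson interval of 0.0479% to 0.0501% that covers counting error only.

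The second comparison concerned the arms against each other, which needs no scaling between libraries because the ratio is taken within a library. The mature sequence of rno-miR-126 has 22 bases and that of rno-miR-126* has 21. Libraries were cut from a gel by length, and the range kept began at the length of rno-miR-126. The ratio is therefore not free of differences in this cut between libraries, which were not tested. rno-miR-126 had 3.95, 2.85, 2.48 and 5.78 reads for each read of rno-miR-126* in the CTL libraries 1 to 4. In the AA libraries 1 to 4 there were 4.81, 2.58, 3.29 and 18.3. The 3′ arm was thus the more abundant arm in all 8 rats, and the ratio spanned 7.39-fold from the third CTL to the fourth AA rat. The fourth library was the highest of its group in both groups, and the other AA rats lay inside the CTL range.

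On the log2 scale the ratio was 1.83 ± 0.54 in CTL and 2.39 ± 1.26 in AA (SD, n = 4 each). The difference of 0.55 (standard error 0.57, 95% interval -0.73 to 1.84) was not called (adjusted p = 0.64 from limma over 92 hairpins), and the exact two-sided permutation test gave p = 0.571, with 0.0286 the smallest p that 4 against 4 rats allow. Among the 92 hairpins with both arms tested, 3 (3.26%) were called for a change of ratio, and in 13% of them the AA and CTL ratios did not overlap, whereas those of miR-126 overlapped. In the 6 libraries numbered 1 to 3 the difference was 0.18 (95% interval -0.50 to 0.87, adjusted p = 0.80 from limma). Without the fourth AA library alone it was -0.05.

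Compared with other hairpins, miR-126 had a balanced pair of arms. Its median log2 ratio in CTL was 1.75, against a median of 5.74 over the 92 hairpins, and ranked 73 from the highest. The neighbours in that order were rno-miR-201, at 1.89, and rno-miR-872, at 1.73, and these 3 values differed by less than the SD of the miR-126 ratio within CTL. In 12 of the 92 hairpins the starred arm was the more abundant one. The within-group SD of the miR-126 ratio was 0.97, rank 4 of the 92, against a median of 0.40. Without the fourth AA library it was 0.51, rank 30, against a median of 0.37, and in the libraries numbered 1 to 3 it was 0.40, rank 27, against a median of 0.31.

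The arms moved in opposite directions when given as shares of the reads of a library. Together they took 0.909%, 0.869%, 0.843% and 0.977% of the reads in the CTL libraries 1 to 4, and 0.912%, 0.749%, 0.850% and 0.946% in the AA libraries 1 to 4. This summed share varied by 8.04% (coefficient of variation over the 8 libraries), against 17.03% for rno-miR-126 and 34.6% for rno-miR-126*. Within each group, the order of the rats by rno-miR-126 share was the exact reverse of their order by rno-miR-126* share.

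Over the 8 libraries, log2 values scaled by library totals gave Pearson's r = -0.80 between the arms (exact permutation p = 0.0022) and Spearman's rho = -0.93 (exact permutation p = 0.0022). With TMM scaling the relation was not called, at r = -0.32 (exact permutation p = 0.42) and rho = -0.55 (exact permutation p = 0.17), and with DESeq2 size factors r was -0.23 (exact permutation p = 0.54). This is 1 relation under 3 scalings, and over these the Benjamini-Hochberg adjusted exact permutation p for library totals was 0.0066. Leaving out the 2 libraries farthest from the median of rno-miR-126 removed different libraries under these scalings. With library totals, AA libraries 2 and 4 were removed and r was -0.97. With TMM scaling, AA library 2 and CTL library 3 were removed and r was -0.34. These values therefore do not compare the scalings on the same libraries. In the 6 libraries numbered 1 to 3, r was -0.74 with library totals (exact permutation p = 0.082) and 0.15 with TMM scaling (exact permutation p = 0.78). The inverse relation was thus seen in shares of reads and was not called after TMM scaling, whose factors ran from 0.874 to 1.21. Within each group rho stayed at -0.8 with TMM scaling and with DESeq2 size factors, given as a description. The points share the library total, and groups of 4 are too small for a test within a group.

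**Figure D2:**
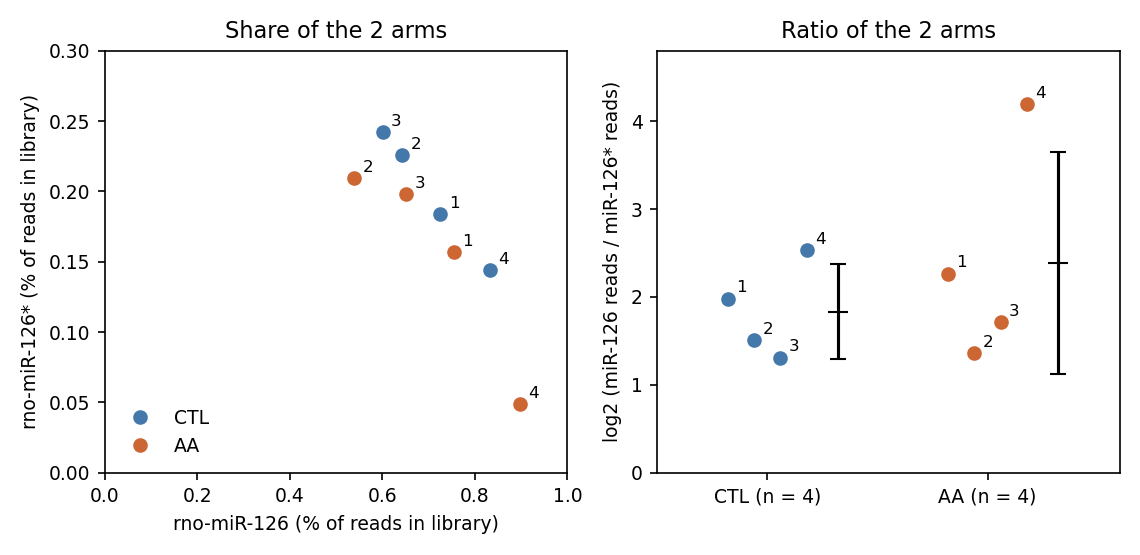
Left, share of the reads of a library taken by rno-miR-126 (x axis) and rno-miR-126* (y axis), in percent, with 1 point per library and its number. Right, log2 ratio of the reads of the arms per library, with the mean and SD (n = 4 per group). Libraries with more rno-miR-126 had less rno-miR-126*, and library 4 has the highest ratio of its group, at 2.53 in CTL and 4.19 in AA.

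As shares of all reads on known miRNAs, no difference between the groups was called for either arm or for their sum. rno-miR-126 took 0.701% ± 0.102 in CTL and 0.711% ± 0.152 in AA (SD, n = 4 each, exact permutation p = 0.914). For rno-miR-126* the shares were 0.199% ± 0.0441 and 0.153% ± 0.0732 (SD, n = 4 each, exact permutation p = 0.343). For the sum they were 0.900% ± 0.0584 and 0.864% ± 0.0865 (SD, n = 4 each, exact permutation p = 0.571). All tests were two-sided, and adjusted over the 3 shares the lowest p was 0.857. The denominator mattered, since as shares of the reads less the 3 most abundant miRNAs the sum was lower in AA by a difference of -0.468 percentage points (exact permutation p = 0.0286, the smallest possible, not adjusted), and the difference of rno-miR-126 turned to -0.298 (exact permutation p = 0.229). Among the 3 removed, miR-378 was itself lower in AA (log2 fold change -0.75, adjusted p = 0.019 from edgeR). Its removal lowers the shares of all other miRNAs in AA relative to CTL. In the libraries numbered 1 to 3 the differences were -0.00762 percentage points for rno-miR-126, -0.0291 for rno-miR-126* and -0.0367 for the sum, where 3 against 3 rats cannot give an exact permutation p under 0.1.

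The behaviour of the libraries numbered 4 was examined over all hairpins. In the fourth AA library the log2 arm ratio of miR-126 lay 2.48 above the median of the other AA libraries, the largest deviation in either direction among the 92 hairpins, where the median size was 0.57. In the fourth CTL library it lay 1.02 above the median of the other CTL libraries, rank 20 by size among the 92, against a median size of 0.44. The signs of the deviations in the fourth AA and the fourth CTL library were the same in 55 of the 92 hairpins, and the correlation across hairpins was r = 0.39, a description over hairpins of the same 2 libraries. Only miR-126, miR-34a, miR-34c and miR-380 exceeded 1 in both libraries in the direction of the unstarred arm. Some of these rest on few reads. rno-miR-380 was at 7.98 CPM in the fourth CTL and 1.36 CPM in the fourth AA library. rno-miR-34c was at 472 CPM in the fourth CTL library with a log2 ratio of 9.11, which leaves few reads for its starred arm there. In the direction of the starred arm, let-7i, miR-10b, miR-25, miR-106b and miR-135a exceeded 1 in both libraries. A shift shared by the libraries numbered 4 was thus not particular to miR-126 and went either way. The median deviation over all hairpins was -0.14 in the fourth AA library and -0.09 in the fourth CTL library, below 0 in both, while miR-126 lay above 0. The labels give no batch, date or RNA quality for these libraries, and what sets them apart was not tested.

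**Figure D3:**
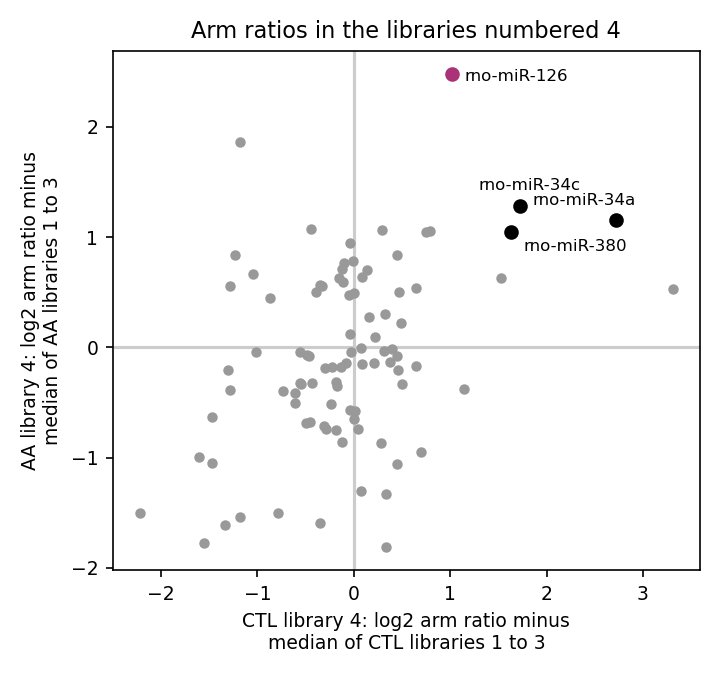
Log2 arm ratio in the fourth CTL library (x axis) and the fourth AA library (y axis), each as the difference from the median of the other 3 libraries of its group, for 92 hairpins (grey). miR-126 is at 1.02 and 2.48, and the other hairpins above 1 on both axes are named in black.

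The miRNAs whose levels followed each arm most closely over the 8 libraries are given as a description. For rno-miR-126 the highest Pearson correlations of log2 CPM were those of rno-miR-151* (r = 0.92), rno-miR-184 (r = 0.89), rno-miR-129 (r = 0.89), rno-miR-139-3p (r = 0.86) and the tubule miRNA rno-miR-192 (r = 0.85). For rno-miR-126* they were those of rno-miR-99a* (r = 0.98), rno-miR-200b* (r = 0.97), rno-miR-140 (r = 0.97), rno-miR-200a* (r = 0.97) and rno-miR-369-3p (r = 0.97). The lists shared no member, and none of these 10 miRNAs was called between the groups. Taken as deviations from the group means, the correlations stayed between 0.85 and 0.98. The closeness to rno-miR-126* leaned on the fourth AA library, without which the 5 correlations were 0.55 for rno-miR-369-3p to 0.78 for rno-miR-99a*. In the libraries numbered 1 to 3 they were 0.31 for rno-miR-369-3p to 0.82 for rno-miR-99a*. Those with rno-miR-126 were then 0.84 for rno-miR-139-3p to 0.97 for rno-miR-192. With library totals in all 8 libraries, those with rno-miR-126 were 0.70 for rno-miR-139-3p to 0.92 for rno-miR-151*. Those with rno-miR-126* were 0.96 for rno-miR-200a* to 0.98 for rno-miR-200b*. The 10 miRNAs were picked by their correlations in these same libraries, so the subsets are no separate check. rno-miR-129, rno-miR-369-3p and rno-miR-99a* had CTL means of only 2.94, 3.13 and 8.38 CPM. All points share the library and its scaling.

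Other miRNAs linked to endothelium and vessel growth, a list of 20 taken from general knowledge, were compared next. Of the 19 tested, 7 were higher in AA, none was lower, and 12 were not called, which compares with 10.4% higher over all tested miRNAs. Their median log2 fold change was 0.37, against 0.06 over all tested miRNAs. The list was chosen with earlier results of these data known, so the comparison is no independent test. Several of the 7 also share a cluster or transcript, so their calls are not independent of each other. The list is no marker of endothelial cells alone, since most of its members are expressed in many cell types. The untested member, rno-miR-296, had at most 1 read in a library.

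The largest difference was that of rno-miR-132, a miRNA induced by CREB that endothelial cells use in vessel growth, which was at 9.23 ± 2.90 CPM in CTL and rose to 37.0 ± 6.18 in AA (SD, n = 4 each). Its log2 fold change was 2.0 with a standard error of 0.27 (edgeR, adjusted p = 0.00070). rno-miR-18a and rno-miR-19b, from the miR-17 cluster of proliferating cells, rose by 1.21 and 0.63 on the log2 scale (adjusted p = 0.012 and 0.029 from edgeR). Other members of that cluster, rno-miR-17-5p, rno-miR-19a, rno-miR-20a and rno-miR-92a, had log2 fold changes of 0.37, 0.64, 0.60 and 0.22 and were not called. rno-miR-221 and rno-miR-222, which come from a shared transcript and repress Kit, rose from 55.2 ± 12.3 to 101 ± 15.0 and from 21.0 ± 3.55 to 36.7 ± 4.33 CPM (SD, n = 4 each, adjusted p = 0.021 and 0.019 from edgeR).

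rno-miR-322 and rno-miR-503, which also share a cluster and restrain the cell cycle, had log2 fold changes of 0.90 and 1.48 (adjusted p = 0.017 and 0.031 from edgeR). For rno-miR-503 the AA and CTL rats overlapped, while they did not for the other 6 called members. Over all tested miRNAs 24.3% showed no overlap. The 6 were counted among members already called, which are apt to separate, so the count adds nothing to the calls. The most abundant member, rno-miR-24, was at 7746 ± 1630 CPM in CTL and 7749 ± 721 in AA (SD, n = 4 each), a level close to that of rno-miR-126. The count of 7 was 9 with library totals, 6 in the libraries numbered 1 to 3, 3 without the second CTL library, 3 without the first AA library and 4 without the second AA library. rno-miR-18a and rno-miR-132 were called under all 16 alternative settings, and rno-miR-503 under 9.

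**Figure D4:**
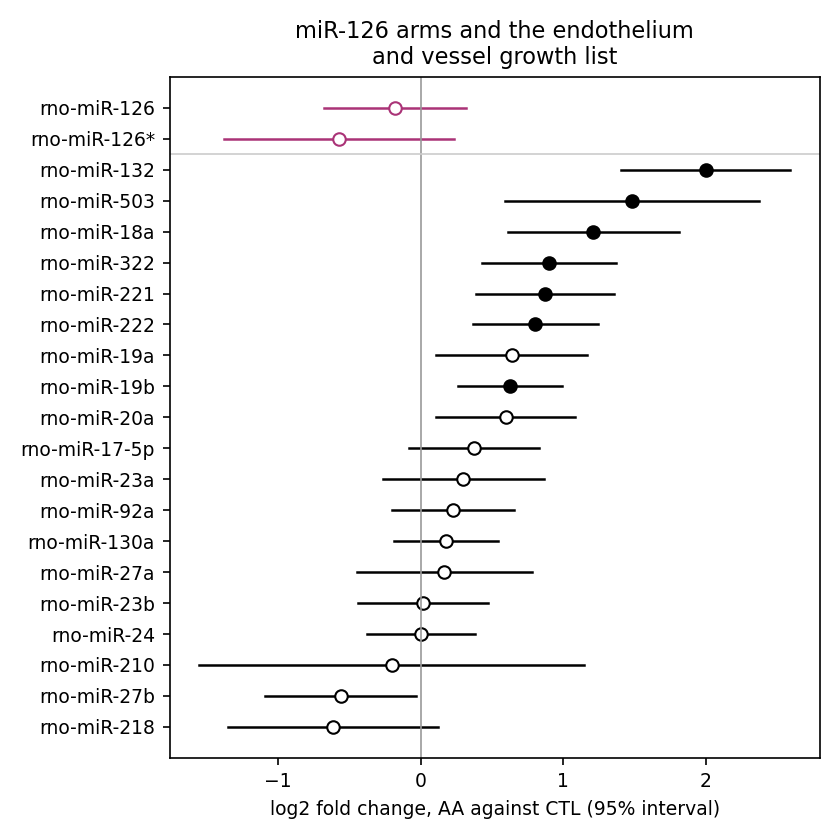
Log2 fold change between AA and CTL with its 95% interval (edgeR, n = 4 per group) for the arms of miR-126 and the 19 tested miRNAs of the endothelium and vessel growth list. Filled points have an adjusted p-value under 0.05, and open points do not. The 7 filled points lie to the right of 0, while both arms of miR-126 have intervals that include 0.

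Markers of other cells in the tissue are given beside these values, as whole lists. Leukocyte and platelet miRNAs summed to 914 to 1264 CPM in the CTL libraries and to 2057 to 4121 in the AA libraries. The sums did not overlap, which 24.3% of all tested miRNAs also showed. Of the 4 tested, miR-142-3p and miR-223 were higher in AA, against 10.4% over all tested miRNAs. Most of the sum was miR-142-3p, with means of 954 CPM in CTL and 2649 in AA. The other arm of its hairpin, miR-142-5p, and miR-150 were not called (log2 fold changes 0.30 and 0.58, adjusted p = 0.56 and 0.062 from edgeR). Neither miR-155 nor miR-486 is a row of the table. The red blood cell miRNAs miR-144 and miR-451 summed to 499 to 798 CPM in CTL and 158 to 564 in AA, and neither was called. Of the vessel-wall smooth muscle miRNAs, miR-143 and miR-145 had log2 fold changes of -0.36 and 0.27 and neither was called. Tubule epithelial miRNAs summed to 146873 to 212810 CPM in CTL and 110327 to 160681 in AA, and 2 of 6 (miR-194 and miR-204) were lower in AA, against 5.99% over all tested miRNAs. Neither of these calls held with library totals (adjusted p = 0.090 and 0.10 from edgeR), and over the 16 alternatives they were lost in 9 and 7. Among the stromal miRNAs, which summed to 468 to 526 CPM in CTL and 536 to 994 in AA, 1 of 3 (miR-199a-3p) was higher, against 10.4% over all tested miRNAs. That call was lost in 9 of the 16 alternatives. The call of miR-223 was lost in 6 of them and that of miR-142-3p in 0. The part of any of these cells in the values of the miR-126 arms was not tested.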

How the data were processed

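Small RNA of 8 rat kidneys was read on a Genome Analyzer II (Illumina). The authors mapped reads with miRanalyzer and Bowtie to known rat miRNAs (miRBase version 17) and deposited raw counts per miRNA and library, not normalized. The submitters' notes also name DESeq, with no role given. The length cut of the gel and adapter ligation favour some arms over others, so the ratio of arms is not a ratio of molecules. Group and number were taken from the sample titles, which match the table's columns.

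Counts were fitted with edgeR 4.0.16 (R 4.3.3, TMM scaling, glmQLFit and glmQLFTest, kept: 10 or more reads in 4 or more libraries, 367 miRNAs). A standard error is the log2 fold change divided by the square root of F. Arm ratios, with 0.5 added to each count, were fitted with limma 3.58.1 over 92 hairpins paired by name. Steps were tested on simulated data. Arms were folded with RNAcofold 2.7.2. Log2 CPM values used a prior count of 2. Within a group the lowest chi-square per degree of freedom between libraries was 296, so none was counted as a repeat of another. Depth, 13412373 reads or more, makes counting error small for both arms.

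The members, lists and tests were chosen with earlier results of these data known. Named were the arms, the 5 miRNAs most correlated with each, called and most abundant list members, and the neighbours in arm ratio. miR-34a, miR-34c, miR-380, let-7i, miR-10b, miR-25, miR-106b and miR-135a were named after their values were seen. Alternatives were other scalings (totals, DESeq2 size factors, no 3 most abundant miRNAs), the DESeq2 1.42.0 Wald test, filters, pseudocounts, a replicate block, the libraries numbered 1 to 3, and each library left out. Added after the data were seen were those for the correlations of other miRNAs with the arms, the list count, the linear ratio and the within-group SD, and the libraries numbered 1 to 3 for the shares and the relation of the arms.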

Additional observations from a re-analysis of the deposited data

Results flagged for a closer look

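Of 46 groups of 4 libraries examined, 2 held a value far from the other 3 by Dixon's test, and about 2.3 would do so by chance. The ratio of rno-miR-126 to rno-miR-126* reads was 18.3 in the fourth AA library, against 2.58 to 4.81 in the other AA libraries. On the log2 scale the same value, 4.19, was not set apart by that test. rno-miR-322 was at 183 CPM in the fourth CTL library, against 234 to 238 in the other CTL libraries.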

How the results depend on the processing

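Neither arm of miR-126 was called under any of the 16 alternative fits. The log2 fold change of rno-miR-126 was 0.021 with library totals and between -0.40 and -0.07 with 1 library left out. That of rno-miR-126* kept its sign in all 16 and ran from -0.80 to -0.37, with adjusted p-values of 0.061 to 0.48 (edgeR, or the DESeq2 Wald test). The log2 ratio difference ran from -0.050 to 0.89 with 1 library left out, where the lowest value came without the fourth AA library. CTL and AA share the numbers 1 to 4 in their titles, and nothing in the labels says that a number marks a shared litter or day. The correlations of deviations between same-numbered libraries across 367 miRNAs were 0.05, 0.20, 0.14 and 0.35, not all over 0.1, and the numbers were therefore not taken as pairs, although 3 of the 4 correlated best with their own. With the replicate block (paired fit), 78 miRNAs were called in place of 60, with 8 higher members of the endothelium and vessel growth list in place of 7, and neither arm nor the ratio was, with a log2 fold change of -0.20 for rno-miR-126 and -0.74 for rno-miR-126* (adjusted p = 0.37 and 0.076 from edgeR). Leaving out 1 library gave 36 to 54 calls, the fewest without the second CTL library and 38 without the first, and 3 to 6 higher members of the endothelium and vessel growth list. As a share of reads less the 3 most abundant miRNAs, the differences were -0.298 percentage points for rno-miR-126 and -0.468 for the sum of the arms. The latter was at the smallest exact permutation p of 0.0286, with miR-378, itself lower in AA, among the miRNAs removed. As a share of all reads in the libraries numbered 1 to 3, the difference was -0.00762 percentage points for rno-miR-126. With 1 library left out, the share differences of rno-miR-126 were between -0.0517 and 0.0675 percentage points and those of the sum between -0.0625 and 0.00323. The correlation of the arms was -0.80 with library totals and 0.15 in the libraries numbered 1 to 3 with TMM scaling. rno-miR-24 had log2 fold changes of -0.057 with DESeq2 size factors, -0.057 in the DESeq2 test, -0.10 less the 3 most abundant miRNAs, -0.0057 with no filter and -0.18 to 0.15 with 1 library left out. rno-miR-30a was at 0.028 with library totals.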
